A study of Mus musculus with 12 samples.

Results

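The 9 Usher syndrome genes described here were Myo7a, Ush1c, Cdh23, Pcdh15, Ush1g, Cib2, Adgrv1, Whrn and Clrn1, taken by symbol as the genes whose proteins form the Usher complexes of the photoreceptor. They are 9 of 53707 rows in the gene table, each with 1 identifier, and 8 of them passed the filter on low counts that left 21061 genes. RNA was sequenced from retinal explants of wild-type C57BL/6J mice at postnatal day 28, cultured for 48 hours in medium with 5 mM or 25 mM glucose, the question being whether glucose supply changes retinal gene expression. Retinas of both groups were freed of the pigment epithelium and kept in the same Neurobasal-A medium with B27 and N2 supplements. Each group held 3 biological replicates with 2 technical replicates each, 12 libraries in all, the first of each pair from batch 1 and the second from batch 2. An isolated retina in culture has lost its contact with the pigment epithelium and its blood supply, and the labels do not say whether a biological replicate is 1 animal or a pool, so p-values measure the spread between these samples.

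Usher syndrome joins inherited hearing loss with retinitis pigmentosa, the slow loss of rods and then cones. In hair cells of the inner ear the type 1 proteins build the tip links and their anchors, and the type 2 proteins build the ankle links. In photoreceptors the same proteins are placed at the calyceal processes around the base of the outer segment and at the periciliary membrane, where cargo passes from the inner segment to the connecting cilium. Rodent photoreceptors have at most rudimentary calyceal processes. Myo7a encodes a motor protein, Ush1c and Ush1g encode the scaffolds harmonin and SANS, Cdh23 and Pcdh15 encode the cadherins of the tip link, and Cib2 encodes a calcium-binding protein first placed in the type 1 group. Adgrv1 encodes a very large adhesion receptor and Whrn the scaffold whirlin, both of type 2, and Clrn1 encodes the membrane protein clarin of type 3.

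Pcdh15 rose with 25 mM glucose, and it was the one member of 8 tested that passed an adjusted p of 0.05. Adgrv1 and Whrn also had all 3 values at 25 mM above all 3 values at 5 mM, but neither passed the test. Myo7a, Clrn1, Cib2, Cdh23 and Ush1g had overlapping replicates, and Ush1c was near the limit of detection in every library. No member was called lower. Levels are given in CPM, the estimated counts of a gene scaled to a common library size, and adjusted p is the false discovery rate over all genes tested. By the same test 1.47% of all genes were called higher and 0.513% lower, while replicates did not overlap in 16.0% of genes with higher values at 25 mM and in 15.8% with lower values. Against these shares, 3 of 8 members had separate, higher values and 0 of 8 separate, lower ones. The median log2 fold change of the 8 members was 0.26, against -0.01 over all genes tested. It was 0.070 without the first 5 mM replicate, with all genes at 0.03, and 0.50 without the second. The members were chosen with earlier results of these data known, and a list of this size carries no test of its own.

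**Figure D1:**
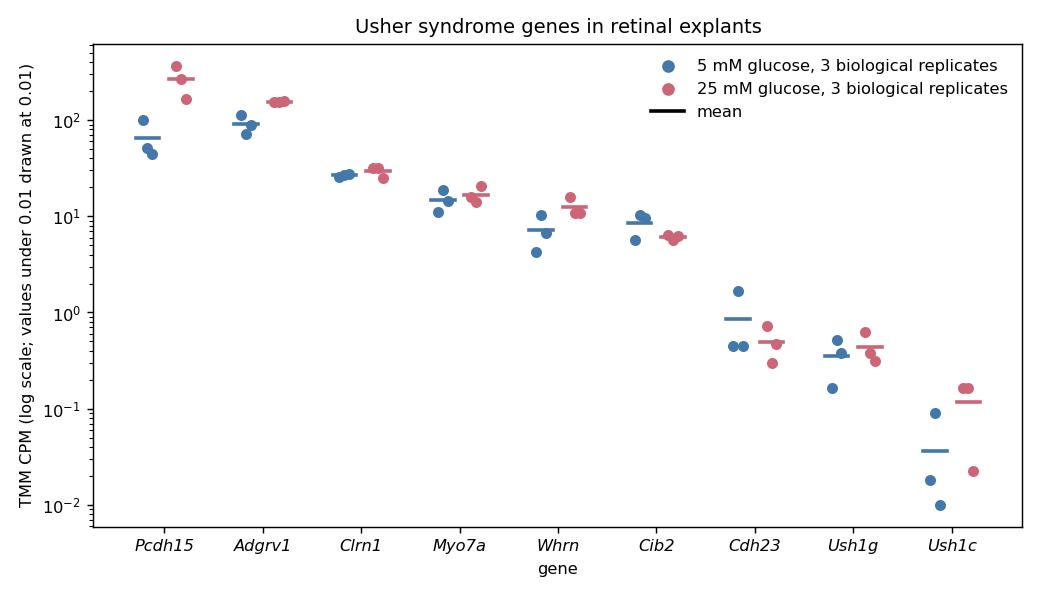
Level in CPM (log scale) of the 9 genes in each of 3 biological replicates at 5 mM (blue) and 25 mM glucose (red), with bars at the means. Pcdh15, Adgrv1 and Whrn had no overlap between the concentrations, and values spanned from under 0.2 CPM for Ush1c to 366 CPM for Pcdh15.

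Library totals lay between 17998905 and 36692484 estimated counts at 5 mM and between 14815285 and 23129541 at 25 mM. Summed over technical replicates they were 43002302 to 60098862 and 37944826 to 42451809. Depth of this size limits counting error alone, because PCR copies cannot be told from molecules without identifiers. Markers of the retina were present: the summed level of 10 rod markers was 2840 to 5500 CPM at 5 mM and 6111 to 8427 CPM at 25 mM. Of 10 listed markers of pigment epithelium, Rpe65 and Mlana alone stayed under 0.1 CPM in all 6 replicates. Others were detected at low levels, such as Tyrp1 at up to 1.23 CPM and Rdh5, the highest, at up to 3.55 CPM. The summed level of the 10 markers was 6.77 to 8.94 CPM at 5 mM and 5.61 to 7.05 CPM at 25 mM. In bulk tissue, fewer cells of a type and less RNA per cell cannot be told apart.

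Pcdh15 (ENSMUSG00000052613) spans 1550 kb of chromosome 10 on the plus strand, from 73099342 to 74649737 in GRCm38. Its level at 5 mM was 101, 51.3 and 43.9 CPM in the 3 biological replicates. At 25 mM it was 366, 269 and 166 CPM. The lowest value at 25 mM lay above the highest at 5 mM, and within each concentration the highest value was more than 2-fold above the lowest. The mean rose from 65.3 ± 30.8 to 267 ± 99.9 CPM (SD, n = 3), a fitted log2 fold change of 2.03 ± 0.39 (SE), or 4.09-fold with a 95% interval of 2.21 to 7.57. The adjusted p over all genes by edgeR's quasi-likelihood test was 0.046, close to the threshold, and the exact permutation test gave 0.1, the smallest p that 3 against 3 can give.

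The promoter of Pcdh15 is shown because it is the member called. The sequence, from RefSeq (GRCm38.p6), is chr10:73821617-73821891 on the plus strand, 250 bases before the RefSeq start and 25 from it, and capitals mark TGCTGA, a core of the site of NRL, the rod transcription factor. The annotated transcript with most Pcdh15 counts starts 16 bases downstream of the RefSeq start.
Pcdh15: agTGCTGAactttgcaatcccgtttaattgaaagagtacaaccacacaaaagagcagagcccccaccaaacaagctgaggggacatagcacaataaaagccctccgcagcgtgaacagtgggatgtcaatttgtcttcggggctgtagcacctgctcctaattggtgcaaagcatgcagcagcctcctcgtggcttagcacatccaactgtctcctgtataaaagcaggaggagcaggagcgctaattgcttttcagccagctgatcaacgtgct
The promoters of Adgrv1 and Whrn were added after their values were seen, since these are the other members with separate replicates. That of Adgrv1 is chr13:81633120-81633394 on the minus strand, where capitals mark TAATCC read on the opposite strand, the core of the site of the photoreceptor homeodomain factor CRX. That of Whrn is chr4:63495967-63496241 on the minus strand, where capitals mark GGGCGG, the GC box bound by SP and KLF factors.
Adgrv1: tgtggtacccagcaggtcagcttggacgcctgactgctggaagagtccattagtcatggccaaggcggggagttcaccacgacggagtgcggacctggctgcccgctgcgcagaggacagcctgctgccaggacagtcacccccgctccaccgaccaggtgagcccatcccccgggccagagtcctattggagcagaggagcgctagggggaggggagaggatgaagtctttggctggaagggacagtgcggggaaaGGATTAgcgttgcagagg
Whrn: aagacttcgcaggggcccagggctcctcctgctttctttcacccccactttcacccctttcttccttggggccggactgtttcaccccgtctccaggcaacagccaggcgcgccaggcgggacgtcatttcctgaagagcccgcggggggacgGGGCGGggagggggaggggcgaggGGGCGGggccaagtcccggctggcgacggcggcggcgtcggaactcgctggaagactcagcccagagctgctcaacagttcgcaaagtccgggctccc

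RefSeq gave 9 promoter windows of 300 bases for 8 of the 9 genes, 2 of them for Myo7a, and Ush1g had no entry. Both strands were searched for 4 motifs, with positions counted from the RefSeq start of each window as 0. For Pcdh15 this start, 73821867, lies inside the annotated span of the gene, which begins at 73099342. TAATCC was found in 1 of 9 windows, that of Adgrv1 at position 7, and in 7.06% of all 32851 windows. TGCTGA was found for Pcdh15 at position -248 and for Myo7a, and in 19.5% of all windows. GGGCGG was found for Whrn at positions -97 and -73, for Myo7a, Cib2 and Ush1c, and in 35.7% of all windows. CACGTG, an E box core, was in 0 of the 9 windows and in 7.15% of all. The 3 members whose replicates were separate thus had no motif in common among the 4 searched.

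Technical replicates of Pcdh15 differed widely. In batch 1, its levels were 53.2, 29.8 and 30.2 CPM at 5 mM and 227, 544 and 196 CPM at 25 mM. In batch 2, they were 164, 78.9 and 56.5 CPM at 5 mM and 525, 110 and 137 CPM at 25 mM. The groups were fully separate in batch 1, while in batch 2 the first 5 mM replicate lay above the lower pair at 25 mM. The largest log2 gap between technical replicates of one biological replicate was 2.30 for Pcdh15, against a median of 0.82 over all genes tested. Fitted within batch 1 alone, the log2 fold change was 3.08 ± 0.45 (SE) with an adjusted p of 0.0083 by edgeR, where 7.16% of all genes were called higher. Within batch 2 alone it was 1.34 ± 0.64 with an adjusted p of 0.44, where 0% of genes were called in either direction and 2203 had an unadjusted p under 0.05. When each biological replicate was left out in turn, the log2 fold change stayed between 1.75 and 2.48. The call held without the first replicate at 5 mM and without the third at 25 mM, and it was lost without the second (adjusted p = 0.15) or the third at 5 mM (0.17) and without the first (0.14) or second at 25 mM (0.16). In each of these 4 fits 0% of all genes passed, with 3813 to 4071 at an unadjusted p under 0.05, so the loss was not particular to Pcdh15.

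**Figure D2:**
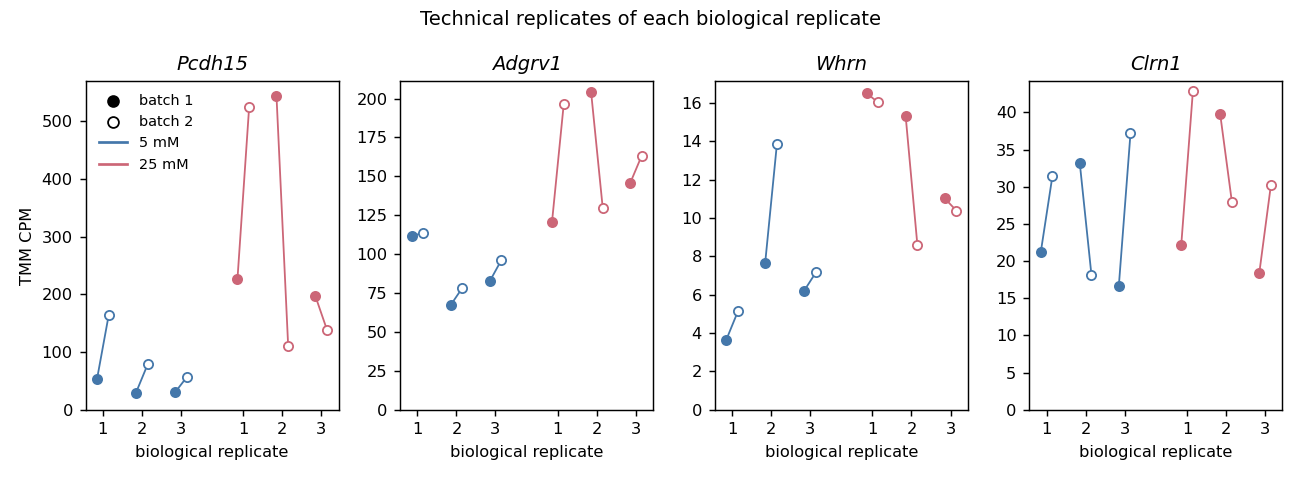
CPM (linear axes from 0) of Pcdh15, Adgrv1, Whrn and Clrn1 in the 12 libraries, with lines joining the technical replicates of each biological replicate, filled points for batch 1 and open points for batch 2. The second biological replicate at 25 mM fell from 544 to 110 CPM of Pcdh15 between batches, whereas no library of Adgrv1 at 25 mM lay below any at 5 mM.

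Levels of other cell types moved with Pcdh15. The log2 deviations of Pcdh15 from the mean of its concentration had a Pearson r of -0.93 with those of the mean of 6 vascular markers over the 12 libraries, 0.81 with 9 cone markers, 0.73 with 6 bipolar markers, -0.74 with 6 microglial markers and 0.37 with 10 rod markers. These are descriptions over libraries that share batches and biological replicates. The summed vascular level was 740 to 1489 CPM at 5 mM and 315 to 614 CPM at 25 mM. Within batch 1 it was 960 to 1951 CPM at 5 mM and 242 to 424 CPM at 25 mM. Within batch 2 the groups overlapped, at 419 to 1187 and 404 to 767 CPM. Of the vascular markers 6 of 6 had log2 fold changes below 0, with a median of -2.06 and none called. The microglial markers also had 6 of 6 below 0, with a median of -0.98 and none called. In the second replicate at 25 mM, the summed vascular level was 268 CPM in the library with 544 CPM of Pcdh15 and 637 CPM in the library with 110 CPM. In the first replicate at 5 mM it was 960 CPM in the library with 53.2 CPM of Pcdh15 and 419 CPM in the library with 164 CPM. The part of the vascular and microglial signal in the Pcdh15 difference was not tested.

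**Figure D3:**
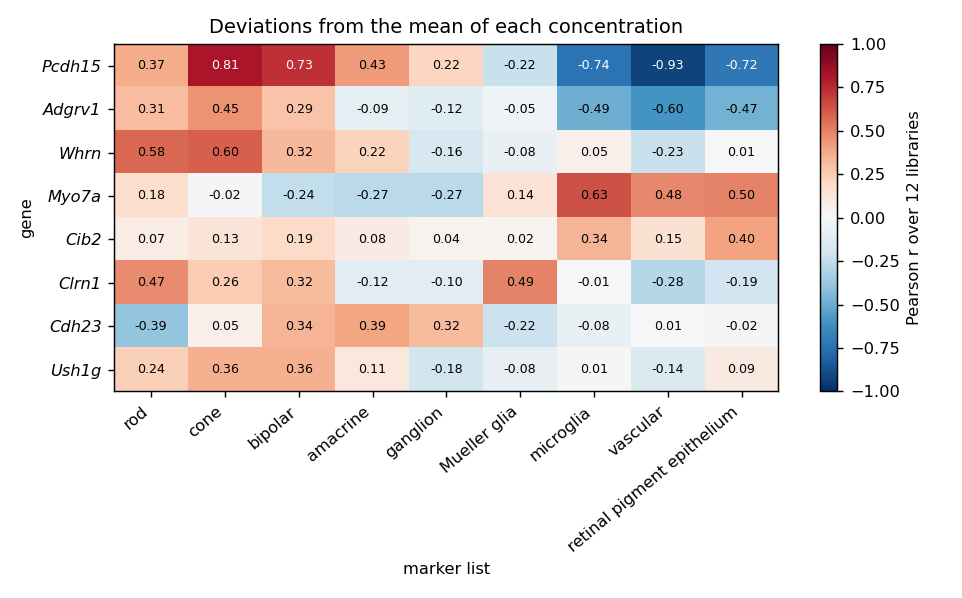
Pearson r over 12 libraries between 8 Usher genes and the mean of each marker list, after subtracting the mean of each concentration, from -1 (blue) to 1 (red). Pcdh15 had the widest range, from -0.93 with vascular to 0.81 with cone markers, and Adgrv1 reached -0.60 with vascular markers.

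Adgrv1 (ENSMUSG00000069170), the adhesion receptor of the periciliary membrane, spans 538 kb of chromosome 13 on the minus strand (81095068 to 81633154). Its level was 114, 72.2 and 89.8 CPM at 5 mM and 155, 155 and 157 CPM at 25 mM. The 25 mM values were nearly equal and all above the 5 mM values. The mean was 91.9 ± 20.8 against 156 ± 0.86 CPM (SD, n = 3), with a log2 fold change of 0.76 ± 0.19 (SE), 1.69-fold with a 95% interval of 1.25 to 2.30, and an adjusted p of 0.069 by edgeR. The near equality at 25 mM arose after summing, since single libraries there ran from 121 to 204 CPM. The replicates were separate within both batches, with log2 fold changes of 0.84 in batch 1 and 0.77 in batch 2, and adjusted p of 0.066 and 0.39. The Adgrv1 value passed the threshold in 8 of 23 alternative settings, among them DESeq2 (adjusted p = 0.016), which called 16.6% of all genes. Another of the 8 was the fit of 12 libraries, which counted technical replicates as independent samples.

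Whrn (ENSMUSG00000039137), the scaffold that binds Adgrv1 at the periciliary membrane, spans 81.1 kb of chromosome 4 on the minus strand (63414910 to 63495991). Its level was 4.30, 10.4 and 6.70 CPM at 5 mM and 16.0, 10.9 and 10.8 CPM at 25 mM. The groups did not overlap, but the second 5 mM value lay just under the lower pair at 25 mM. The log2 fold change was 0.82 ± 0.35 (SE), 1.76-fold with a 95% interval of 1.00 to 3.10, and the adjusted p by edgeR was 0.17. Within batch 1 the log2 fold change was 1.29 with an adjusted p of 0.042, and within batch 2 it was 0.42 with overlapping replicates and an adjusted p of 0.66. With offsets for GC content and length it was 1.51 with an adjusted p of 0.016, where 11.1% of all genes were called. The longest annotated transcript of Whrn holds 63.2% G and C. By the same measure the median over genes tested was 48.5%, with 44.8% for Pcdh15 and 46.8% for Adgrv1.

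Myo7a (ENSMUSG00000030761), the motor that in retina is strongest in the pigment epithelium, lies on chromosome 7 (98051060 to 98119524, minus strand). It measured 11.0, 19.0 and 14.3 CPM at 5 mM and 15.7, 14.0 and 20.8 CPM at 25 mM. The ranges overlapped between 14.0 and 19.0 CPM, with a log2 fold change of 0.19 and a 95% interval of -0.43 to 0.81. With offsets for GC content and length it was 0.61 with an adjusted p of 0.0498 by edgeR in that same fit, and with a replicate block added it was 0.61 with an adjusted p of 0.078, where 13.2% of all genes were called. Clrn1 (ENSMUSG00000043850), on chromosome 3 (58844028 to 58885340, minus strand), measured 25.8, 26.6 and 27.4 CPM at 5 mM and 31.7, 31.8 and 25.0 CPM at 25 mM. Its log2 fold change was 0.15, with a 95% interval of -0.27 to 0.57. Its single libraries were far less even than these sums, from 16.6 to 37.2 CPM at 5 mM, and its largest log2 gap between technical replicates was 1.14.

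Cib2 (ENSMUSG00000037493), on chromosome 9 (54544794 to 54560218, minus strand), measured 5.62, 10.3 and 9.66 CPM at 5 mM and 6.33, 5.67 and 6.22 CPM at 25 mM. The first 5 mM replicate lay below all values at 25 mM and the other pair above them. The log2 fold change was -0.49, with a 95% interval of -1.16 to 0.18 and an adjusted p of 0.29 by edgeR, and without the first 5 mM replicate it was -0.72 with an adjusted p of 0.045, in a fit that called 26.6% of all genes. Within batch 2 it was -0.91 with separate replicates, and within batch 1 it was -0.05 with overlap. Exons of Sh2d7 on the opposite strand cover 15.8% of the exonic bases of Cib2, but Sh2d7 itself did not exceed 0.0232 CPM. Ush1c shares 3.12% of its exonic bases with a gene on the opposite strand, and the exons of the other 7 members overlapped no annotated exon of another gene.

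The remaining type 1 genes were scarce. Cdh23 (ENSMUSG00000012819), on chromosome 10 (60302748 to 60696490, minus strand), measured 0.45, 1.67 and 0.45 CPM at 5 mM and 0.72, 0.30 and 0.47 CPM at 25 mM. Its log2 fold change of -0.76 had a 95% interval of -2.15 to 0.62. It became 0.15 without the second replicate at 5 mM, and it was 0.94 in batch 1 and -2.49 in batch 2. Ush1g (ENSMUSG00000045288), on chromosome 11 (115315192 to 115322041, minus strand), measured 0.16, 0.52 and 0.38 CPM at 5 mM and 0.63, 0.38 and 0.32 CPM at 25 mM. Its log2 fold change was 0.33, with a 95% interval of -0.83 to 1.49, and it turned to -0.029 without the first 5 mM replicate. Ush1c (ENSMUSG00000030838), on chromosome 7 (46195350 to 46238503, minus strand), had 18 counts over all 12 libraries and was not tested. Its values were 0.018, 0.091 and 0 CPM at 5 mM and 0.16, 0.16 and 0.023 CPM at 25 mM. Cdh23 had 183 and Ush1g 105 counts over all libraries. The intervals of both include 0, and that of Ush1g, but not that of Cdh23, includes the log2 fold change of Adgrv1.

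Levels of different genes were compared per kb of annotated exon. At 5 mM the order by mean was Clrn1 with 6.89 CPM per kb, Cib2 with 5.95, Adgrv1 with 3.69, Pcdh15 with 2.75, Myo7a with 1.72, Whrn with 0.97, Ush1g with 0.11, Cdh23 with 0.051 and Ush1c with 0.0094. From Clrn1 down to Whrn, each gene's replicate range overlapped that of the next, whereas Whrn and Ush1g were separate. At 25 mM Pcdh15 came first with 11.2 ± 4.20 CPM per kb (SD, n = 3), then Clrn1 with 7.65 ± 1.02, Adgrv1 with 6.25 ± 0.035, Cib2 with 4.24 ± 0.25, Myo7a with 1.97 ± 0.42 and Whrn with 1.71 ± 0.40. The ranges of Pcdh15 and Clrn1 overlapped, as did those of Myo7a and Whrn, while Clrn1, Adgrv1, Cib2 and Myo7a were each separate from the next in that order. The order depends on the length used. When each transcript's counts were divided by its own length, Adgrv1 came first at 5 mM with 17.1 CPM per kb, ahead of Pcdh15 with 11.4 and Clrn1 with 10.8, and at 25 mM Pcdh15 had 43.8, Adgrv1 27.7 and Clrn1 11.6.

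The annotated transcripts that carried the counts differed between the members. Reads are shared out among overlapping transcripts by estimation, so these shares are less certain than the gene totals. For Adgrv1 the full-length coding transcript Adgrv1-201, of 19338 bases and 90 exons, held 68.8% of the counts. For Pcdh15 the coding transcript Pcdh15-234 held 53.4% and the single-exon retained-intron transcript Pcdh15-240 held 18.3%. Clrn1-202 held 83.4% and Clrn1-201 11.1% of Clrn1, and Cib2 and Ush1g each had 1 transcript. For Whrn 65.1% of the counts fell on retained-intron transcripts, led by Whrn-217 (29.1%), Whrn-213 (24.3%) and Whrn-216 (11.1%). For Myo7a the nonsense-mediated decay transcript Myo7a-212 held 53.2% and the full-length coding transcript Myo7a-204 held 42.1%. The leading transcripts of Whrn and Myo7a start 62669 and 50116 bases downstream of the RefSeq start, far from their first promoters. Of the few counts of Cdh23, Cdh23-203 held 45.0% and a retained-intron transcript held 22.1%, and of the 12 estimated counts of Ush1c transcripts, Ush1c-206 held 57.2%, Ush1c-208 17.8% and Ush1c-203 16.7%.

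**Figure D4:**
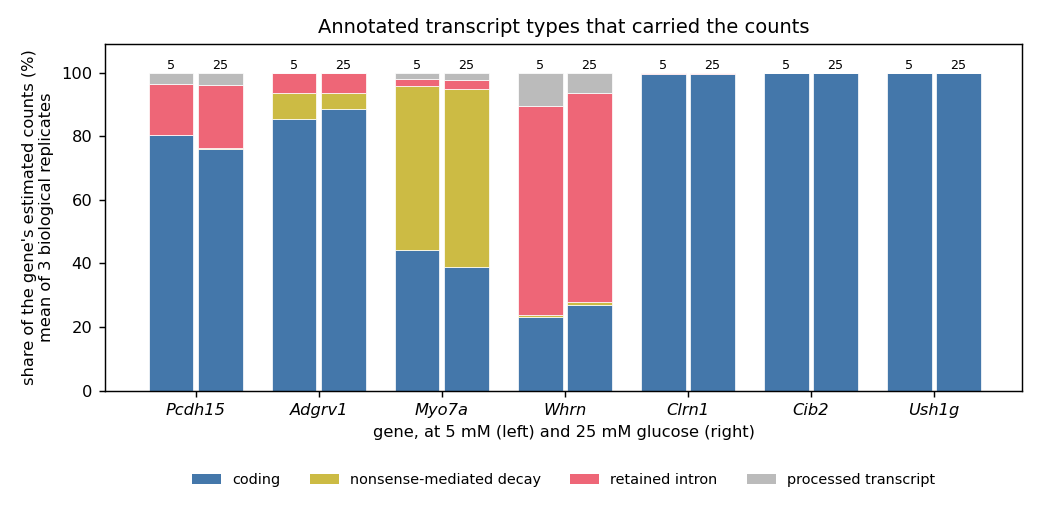
Share of each gene's estimated counts (in percent, mean of 3 biological replicates, linear axis from 0) on coding, nonsense-mediated decay, retained-intron and processed transcripts at 5 mM (left bar) and 25 mM glucose (right bar). Retained-intron transcripts held 65.9% of Whrn counts at 5 mM and 65.7% at 25 mM, and Clrn1, Cib2 and Ush1g were almost wholly coding.

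Of the 115 transcripts of these genes, 50 were tested, and 0 passed an adjusted p of 0.05 by edgeR, as did 0% of all 64990 transcripts tested, 10668 of which had an unadjusted p under 0.05. The lowest adjusted p among the members' transcripts was 0.20. At an unadjusted p under 0.05, 16 of 50 were higher and 1 lower, beside 7.81% higher and 8.60% lower of all transcripts. The 16 came from 3 genes, with 9 from Pcdh15, 5 from Adgrv1 and 2 from Whrn. Adgrv1-201 measured 63.4, 47.4 and 42.1 CPM at 5 mM and 154, 121 and 97.1 CPM at 25 mM, a log2 fold change of 1.28. Its groups were separate. Summed over all its transcripts in the same table, Adgrv1 had a log2 fold change of 1.15 with an adjusted p of 0.042 by edgeR, against 0.76 in the gene table, and Pcdh15 had 1.96 with an adjusted p of 0.051. In these summed counts 1.66% of all genes were called, and Adgrv1 in place of Pcdh15 was the member that passed. Pcdh15-234 measured 57.7, 24.4 and 24.0 CPM at 5 mM and 196, 138 and 73.3 CPM at 25 mM, with a log2 fold change of 1.94, and Pcdh15-240 had 2.23. The coding share of Adgrv1 was 85.4% ± 1.92 at 5 mM and 88.7% ± 2.03 at 25 mM (SD, n = 3). That of Whrn was 23.1% ± 1.53 and 26.9% ± 0.48. Both were separate between the groups, with an exact permutation p of 0.1, the smallest that 3 against 3 can give. For Adgrv1 the gap was narrow, from 86.6% as the highest share at 5 mM to 86.8% as the lowest at 25 mM. How often coding shares were separate over all genes was not computed. The coding share of Pcdh15 was 80.4% ± 0.73 and 76.0% ± 5.96, and its replicates overlapped.

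Rod markers were also higher at 25 mM, with 10 of 10 log2 fold changes above 0, 5 called and a median of 1.02. The log2 fold change of Pcdh15 was above that of 9 of the 10 rod markers, and those of Adgrv1 and Whrn were above 4 of 10. Each member was then set against the rods by subtracting the mean log2 CPM of the 10 rod markers in the same sample, a comparison added after the data were seen. Before the log, 0.5 was added to each CPM. That is close to the levels of Cdh23 and Ush1g, so their own changes are damped on this scale. Relative to the rods, Pcdh15 was higher at 25 mM by 1.03 on the log2 scale with overlapping replicates (exact permutation p = 0.2, two-sided). Adgrv1 changed by -0.23 (exact p = 0.8) and Whrn by -0.18 (exact p = 0.5), both with overlap. Clrn1 at -0.88, Myo7a at -0.82, Cib2 at -1.43, Cdh23 at -1.36 and Ush1g at -0.87 were separate and lower relative to the rods (each exact p = 0.1, the smallest possible, adjusted p = 0.16 over 8 members). On this scale 75.0% of all genes were separate and lower, 0.351% were separate and higher, and the median change of all genes was -1.02, so the 5 of 8 lower members were no more than the share of all genes. No member's difference from the rods therefore passed a threshold of 0.05, which 3 against 3 cannot reach.

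The other marker lists moved less or the other way. Of 9 cone markers 1 was called higher, with a median log2 fold change of 0.49 and summed levels of 77.0 to 93.6 CPM at 5 mM and 102 to 123 CPM at 25 mM. Of the Müller glia markers 0 of 8 were called, with a median of -0.19 and sums of 1940 to 2154 and 1598 to 2086 CPM. The 6 bipolar, 6 amacrine and 6 ganglion cell markers had 0 calls each, with medians of 0.12, 0.04 and -0.02. Of 10 markers of pigment epithelium 7 were tested and 0 called.

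The members did not vary as one group among themselves. Over the 12 libraries, after subtracting the mean of each concentration, Pcdh15 and Adgrv1 had a Pearson r of 0.70, Ush1g and Whrn 0.73, Myo7a and Cib2 0.70 and Whrn and Cib2 0.65. Adgrv1 ran against Myo7a (-0.63), Cib2 (-0.63) and Cdh23 (-0.62), and with its partner Whrn it had an r of -0.27. The 5 genes most like the mean of the 8 members were Clstn3 (r = 0.94), Mettl17 (0.94), Bcl7a (0.94), Plch2 (0.94) and Dennd6b (0.94), none of which was called between the concentrations.

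Of 16 genes for partners of the Usher proteins or for related syndromes of eye and ear, 16 were tested, 1 was called higher and 0 lower, with a median log2 fold change of 0.12. The one called was Myrip, which links the myosin VIIa motor to Rab27a on melanosomes. Myrip measured 11.3, 11.1 and 12.2 CPM at 5 mM and 50.1, 30.1 and 28.6 CPM at 25 mM, a log2 fold change of 1.65 ± 0.26 (SE) with an adjusted p of 0.033 by edgeR. Its values were even at 5 mM and more than 2-fold higher in each 25 mM replicate. Rab27a, the GTPase of the same link, measured 6.77, 7.51 and 5.00 against 13.4, 10.6 and 9.70 CPM, with a log2 fold change of 0.81 and an adjusted p of 0.10. Arsg, a lysosomal sulfatase gene of atypical Usher syndrome, measured 12.6, 14.1 and 15.8 against 34.3, 23.5 and 21.0 CPM, with 0.89 and an adjusted p of 0.074. Of the 16 partners, 5 were separate and higher and 3 separate and lower, beside 16.0% and 15.8% of all genes tested. Among all genes 1.47% were called higher. The other separate, higher partners were Slc4a7, a bicarbonate transporter gene, with a log2 fold change of 0.70 (adjusted p = 0.071 by edgeR) and Cep78, a centrosomal gene, with 0.35 (0.27). The lower ones were Ushbp1, a binding partner of harmonin, with a log2 fold change of -2.40 (adjusted p = 0.071), Mpp1, a binding partner of whirlin, with -0.45 (0.15), and Abhd12, a lipase gene of a syndrome with deafness and retinal degeneration, with -0.43 (0.18). Ushbp1 measured 10.7, 43.2 and 41.1 CPM at 5 mM and 2.87, 4.73 and 10.4 CPM at 25 mM, so the first 5 mM replicate was close to the third at 25 mM.

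**Figure D5:**
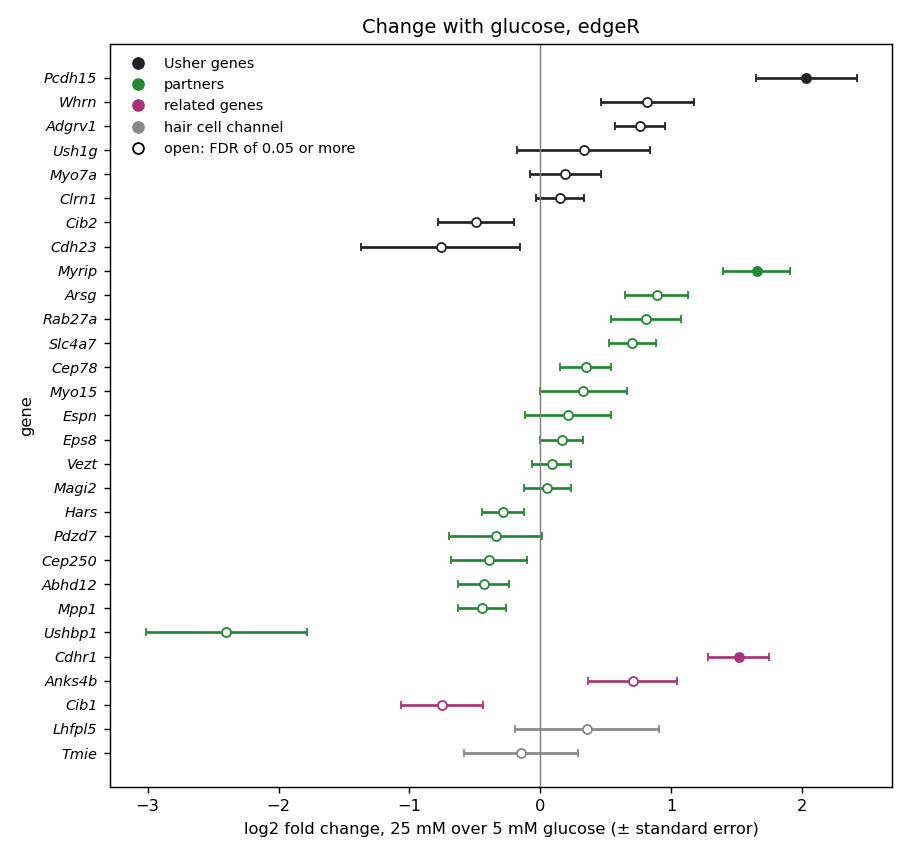
Log2 fold change of 25 mM over 5 mM glucose with its standard error for 8 Usher genes, 16 partners, 3 related genes and 2 hair cell channel genes, with filled points for an adjusted p under 0.05. Pcdh15 (2.03), Myrip (1.65) and Cdhr1 (1.52) were the ones called.

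Few close relatives of the members were expressed. Of 10 related genes 3 were tested, and Myo7b, Cib3, Clrn2 and Clrn3 stayed under 0.1 CPM in every replicate. Cdhr1, the photoreceptor cadherin at the base of the outer segment, was called higher, with 144, 110 and 94.1 CPM at 5 mM and 410, 268 and 315 CPM at 25 mM, a log2 fold change of 1.52 ± 0.23 (SE) and an adjusted p of 0.032 by edgeR. Its groups were far apart, with more than 100 CPM between the highest 5 mM and the lowest 25 mM value. Anks4b, a relative of Ush1g, had separate, higher values with a log2 fold change of 0.71 (adjusted p = 0.21), and Cib1, a relative of Cib2, had overlapping replicates at -0.75 (adjusted p = 0.16). Of 4 genes for the mechanotransduction channel of hair cells, Lhfpl5 and Tmie were tested and 0 were called, with all values under 0.7 CPM. Tmc1 and Tmc2 were under 0.4 CPM in every replicate.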

How the data were processed

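RNA of mouse retinal explants was sequenced in 12 libraries (stranded total RNA kit for low input, 4 ng of RNA, 13 PCR cycles, paired reads of 101 bases). The authors deposited estimated counts (expected counts) per gene and per transcript, not normalized, with technical replicates apart. The build named in the submitters' processing notes is GRCm38, and the counting tool and its use of strand are not given in the sources used here. Of nonzero gene values 100% were not whole, so technical replicates were summed and rounded, although the design spoke of counts. The tables hold 53707 genes and 146263 transcripts, 0 sample columns were left unused, and 90.8% and 92.0% of identifiers matched the GENCODE annotation of GRCm38, which gave symbols, positions and transcript types. The other RNA and chromatin samples of the study were not analysed here.

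Counts were filtered with filterByExpr, scaled by TMM and tested with the quasi-likelihood test of edgeR 4.0.16 (legacy mode, R 4.3.3), 3 biological replicates against 3, with Benjamini-Hochberg adjustment over all genes or transcripts tested. A gene was called at an adjusted p (FDR) under 0.05. The standard error is the log2 fold change divided by the root of its F statistic. CPM was scaled with the TMM factors, and for the correlations the log2 of CPM was taken with 2 prior counts. Gaps between technical replicates, the comparison with the rod markers and the exact tests of CPM use log2(CPM + 0.5). DESeq2 1.42.0 and limma-voom 3.58.1 were alternatives, as were other scalings, filters, batches, left-out replicates, a replicate block, and offsets for GC content and length. The procedure was tested on simulated data. Plots were drawn with matplotlib 3.10.9, exact tests run with scipy 1.17.1 and tables made with pandas 2.3.3 (Python 3.11.15).

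Members, lists and motifs were chosen with earlier results of these data known. Of the partner, related and channel genes, those called were named, or, where fewer than 3 were called in a direction, up to 3 of largest log2 fold change among genes with separate replicates. Slc4a7 and Cep78 fell outside this rule and are the other partners with separate, higher values. Cib1, the channel genes and relatives at low levels were named after their values were seen. Transcripts with at least 10% of a gene's counts, the 5 genes most like the members' mean and the promoter of the called member were named by rule.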

Additional observations from a re-analysis of the deposited data

Results flagged for a closer look

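Dixon's test was applied to 20 groups of 6 libraries, and 4 had a library standing apart, where chance would give about 1 if all values were independent. Libraries here are pairs of technical replicates and the groups share libraries, so the 4 cannot be weighed against that 1. All 4 were at 5 mM glucose. Cdh23 reached 3.31 CPM in the second technical replicate of biological replicate 2, with the other libraries between 0.25 and 0.73 CPM. Ush1g reached 1.03 CPM in the same library, with the others between 0.12 and 0.44 CPM. Pcdh15 reached 164 CPM in the second technical replicate of biological replicate 1, with the others between 29.8 and 78.9 CPM. The total of the first technical replicate of biological replicate 1 was 36692484, with the others between 17998905 and 25003397. With biological replicate 1 at 5 mM taken from its first library alone, the log2 fold change of Pcdh15 was 2.42 and 1 member was called, as with both libraries.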

How the results depend on the processing

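Where 1 member and 417 genes were called with the chosen settings, 2 members were called with library totals (459 genes), DESeq2 (3489), no filter (1979), 12 libraries and a batch term (2918), and batch 1 alone (3279). It was 4 with offsets for GC content and length (2259 genes), 3 with these and a replicate block (2690), 3 at an unadjusted p under 0.05 (6052), and 0 with technical replicates at equal totals (415), in batch 2 alone (0), at an FDR under 0.01 with a fold change over 2 (0), and with 5 mM replicate 2 from its first library (255, an alternative chosen after seeing the data). The fit of 12 libraries counted technical replicates as independent samples, so its calls overstate the replication. Leaving out a replicate gave 0 to 3 members called, with 0 genes called in the 4 fits that gave 0, and 5845 in the fit that gave 3. The median log2 fold change of 0.26 became 0.53 with the stricter filter, 0.84 in batch 1, 0.60 with GC content and length, 0.60 with these and the replicate block, and 0.51 with 5 mM replicate 2 from its first library, and 0.070 to 0.50 without one replicate. Separate members numbered 1 among 12 libraries, 5 with GC content and length, with or without the block, and 3 to 4 without one replicate. They numbered 2 with library totals, with equal totals and in batch 2 alone, and 4 with transcript counts summed per gene. Shares of all genes were not taken in these fits. Groups of other sizes separate more or less readily, so these counts cannot be set against each other or against the main shares. Log2 fold changes that reversed were Cdh23 in batch 1 (0.94), without 5 mM replicate 2 (0.15, over a range of -1.12 to 0.15) and with its first library alone (0.16), and Ush1g without 5 mM replicate 1 (-0.029) and without 25 mM replicate 1 (-0.0056), over a range of -0.029 to 0.70. In all, 153 of 179 values for single members kept direction and side of the threshold, 13 kept direction and passed the threshold in place of missing it, 8 kept direction and no longer passed, and 5 reversed. The causes were not tested. Pcdh15 stayed higher in 23 of 23 alternatives (log2 fold change 1.34 to 3.08, adjusted p under 0.05 in 15, the fit of 12 libraries among them). Member transcripts called stayed at 0 in each of the 10 alternatives run. Same-numbered samples had correlations of -0.01, -0.45 and 0.28 in their deviations, and differently numbered samples had -0.42 to 0.51. From 3 samples per group these values cannot decide whether the numbers pair the samples. With a replicate block 990 genes were called and 1 member, Pcdh15 at 2.06 with an adjusted p of 0.014 by edgeR.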
